A study of Homo sapiens with 7 samples.

Results

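Short stretches of chromatin that gave a peak for ubiquitylated histone H2A in control cells, and none in the same cells given siRNA to the kinase VRK1, are described here. They are peaks under 500 bp for H2A ubiquitylated at the lysine K119 (ubK119) in HT1080 cells treated with a non-targeting control siRNA (siControl). A peak was taken if it overlapped, by 1 bp or more, no peak of 5 other lists. These were ubK119 and H2A phosphorylated at the threonine T120 (pT120) in cells given siRNA to VRK1 (siVRK1), VRK1 itself in siControl cells, and input DNA under either siRNA. The list of pT120 in siControl cells was not part of this choice. The rule found 20267 peaks among the 28955 siControl ubK119 peaks, and among 148917 peaks in all 7 lists. They are called the siControl-only peaks below, a name that refers to the calls and not to the level of the mark.

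Ubiquitin on K119 of H2A is placed by Polycomb repressive complex 1, whose catalytic subunits are RING1A and RING1B, and is removed by deubiquitinases such as BAP1. The mark is known from silenced developmental genes and also as a low, diffuse cover of the rest of the genome. T120 is the neighbouring residue on the tail of H2A, and VRK1 is a nuclear serine and threonine kinase that acts on chromatin. HT1080 is a human fibrosarcoma line. All 7 libraries came from it: ubK119, pT120 and input DNA under siControl and under siVRK1, and VRK1 under siControl. The loss of VRK1 after siVRK1 was not measured in these files.

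The libraries held between 20687408 and 40442635 reads, with siControl ubK119 the deepest and siControl pT120 the shallowest. Levels are given as RPM (reads scaled to the library total), per kb of region where sets are compared. There was 1 library per condition, so no difference has a replicate check, no test was made, and each comparison is one of libraries. Intervals are 95% intervals and cover counting error only. They treat reads as independent, which PCR copies of a molecule are not, so they may be too narrow. A count of 3 reads in a region corresponded to between 0.0742 and 0.145 RPM.

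The siControl-only peaks were low and narrow, as were the siControl ubK119 peaks as a whole. Their deposited height, the authors' own count of extended reads at the fullest window, had a median of 16 reads and ran from 15 to 29. Of the 20267 peaks, 9509 (46.9%, 46.2 to 47.6) stood at 15 reads, the lowest height in the list. The median length was 220 bp, and 7363 peaks (36.3%, 35.7 to 37.0) had the minimum of 200 bp. Among short siControl ubK119 peaks that did overlap a siVRK1 ubK119 peak and met the rest of the rule (859 peaks, called the kept peaks), 22.2% (19.5 to 25.2) had that minimum. The whole siControl ubK119 list, of which the siControl-only peaks are 69.99%, had a median height of 16 reads and a median length of 238 bp.

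The lists began at different heights. The lowest height was 15 reads or 0.371 RPM in the siControl ubK119 list, and 18 reads or 0.6005 RPM in the siVRK1 ubK119 list. Of the siControl-only peaks, 26 (0.128%, 0.0838 to 0.188) had a siControl height of at least 0.6005 RPM. Of the kept peaks, which did have a siVRK1 ubK119 peak, 10 of 859 (1.16%, 0.5596 to 2.13) had one. The part of the lists' minimums in the calls was not tested. In reads, 2964 siControl-only peaks (14.6%, 14.1 to 15.1) had a height of at least 18.

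**Figure D1:**
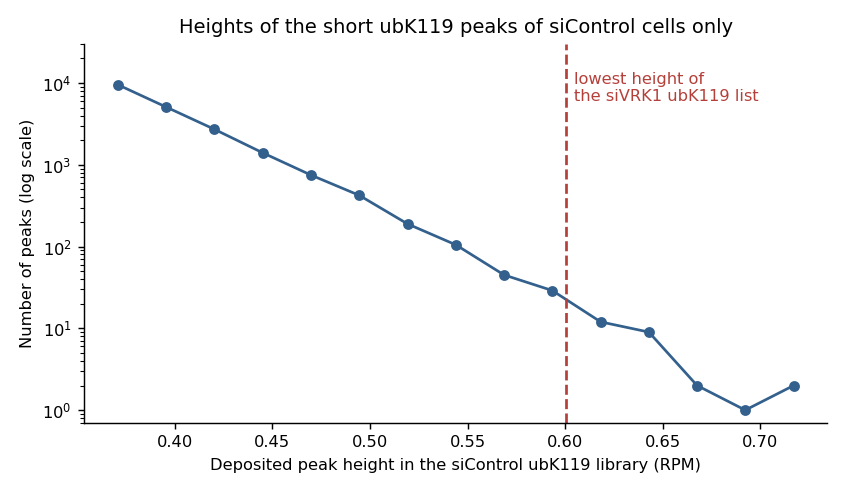
Number of siControl-only ubK119 peaks (vertical axis, log scale) at each deposited height in RPM of the siControl ubK119 library, with the lowest height of the siVRK1 ubK119 list as a dashed line. Each point is 1 height in whole reads, from 9509 peaks at 15 reads to 2 peaks at 29 reads, and 26 peaks lie to the right of the line.

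The rule chose regions high in siControl ubK119 and without a call in 5 other libraries. Levels of siControl ubK119 are thus raised by the choice, and those of the 5 others are capped by it, so the ratios that follow are descriptions. Only siControl pT120 was free of the rule. Summed over the 4958 kb of the siControl-only peaks, siControl ubK119 stood at 1.715 RPM per kb (1.709 to 1.721). The siVRK1 ubK119 library followed with 0.926 RPM per kb (0.921 to 0.931), and VRK1 with 0.718 (0.714 to 0.722). The siVRK1 input had 0.691 RPM per kb (0.687 to 0.695). Next were siControl pT120 with 0.646 RPM per kb (0.6415 to 0.651) and the siControl input with 0.639 (0.635 to 0.643), whose intervals overlap. The lowest level was that of pT120 in siVRK1 cells, 0.555 RPM per kb (0.551 to 0.558). Reads spread evenly over the chromosomes, taken up to the last peak end, would give 0.325 RPM per kb. Both inputs thus stood above an even spread, at 1.97 and 2.13 times for siControl and siVRK1, in regions where neither input had a peak.

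Single regions held few reads. The siVRK1 ubK119 library had from 0 to 33 reads per region with a median of 6, and 634 regions (3.13%, 2.89 to 3.38) had none. For siControl pT120 the range was 0 to 17 with a median of 3, and 1623 regions (8.01%, 7.64 to 8.39) had none. VRK1 and siVRK1 pT120 both had a median of 5 reads, with highest counts of 25 and 20. The inputs had medians of 4 and 5 reads and highest counts of 18 and 29 under siControl and siVRK1.

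**Figure D2:**
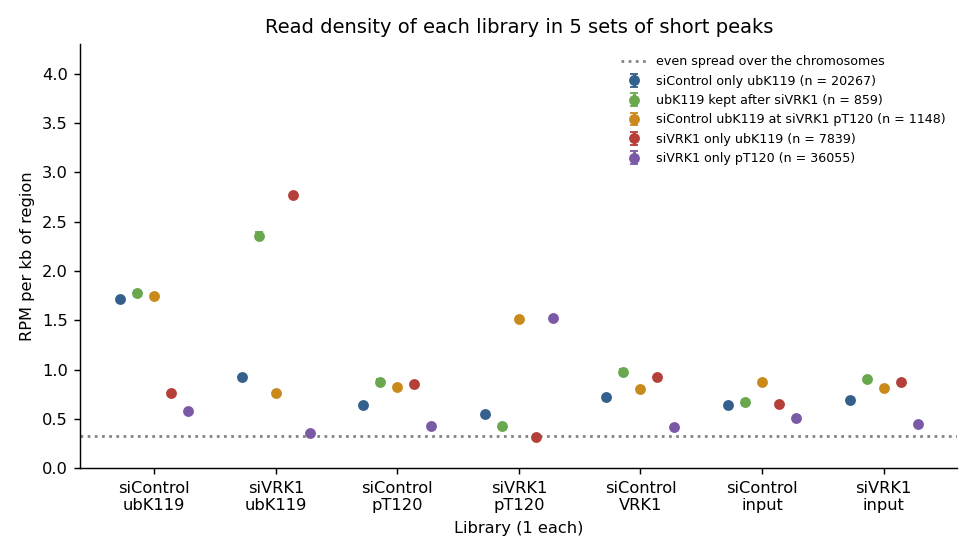
Read density in RPM per kb of region (vertical axis) of each of the 7 libraries (horizontal axis) in the siControl-only ubK119 peaks and 4 other sets of short peaks, with exact Poisson 95% intervals of counting error, mostly smaller than the points, and an even spread as a dotted line. In the siControl-only peaks (blue) siVRK1 ubK119 stands at 0.926 RPM per kb, above both inputs at 0.639 and 0.691.

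The siVRK1 ubK119 library had no peak in any of these regions, yet it held more reads there than input. It stood at 1.34 times (1.33 to 1.35) the siVRK1 input and 1.45 times (1.44 to 1.46) the siControl input. Of the 20267 regions, 12925 (63.8%, 63.1 to 64.4) had more RPM of siVRK1 ubK119 than of siVRK1 input. At least 2-fold above the siVRK1 input, with 0.5 read added to both counts, were 4827 regions (23.8%, 23.2 to 24.4), against 21.8% of all siControl ubK119 peaks, and at least 2-fold below it were 2155 (10.6%), against 9.63%. Both shares lie near those of the whole list.

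Peaks chosen the other way round gave a smaller excess over the input of the same siRNA, and none over the other input. In 7839 short ubK119 peaks found in siVRK1 cells only, the siControl ubK119 library stood at 1.16 times (1.15 to 1.18) the siControl input. Its level there was 0.7596 RPM per kb, against 0.652 for the siControl input and 0.878 for the siVRK1 input. The siControl ubK119 list began at 0.371 RPM and the siVRK1 ubK119 list at 0.6005. The cap on the other ubK119 library was thus lower in the siVRK1-only peaks. At 1148 short siControl ubK119 peaks that overlapped a siVRK1 pT120 peak but otherwise met the rule, siVRK1 ubK119 stood at 0.936 times (0.907 to 0.966) the siVRK1 input. At 36055 short pT120 peaks of siVRK1 cells only, which overlapped no ubK119 peak of either siRNA, it stood at 0.7898 times (0.783 to 0.7965). The siControl-only peaks lay above both of these sets in siVRK1 ubK119. They lay below the kept peaks, where siVRK1 ubK119 stood at 2.604 times (2.53 to 2.68) the siVRK1 input. The kept peaks were chosen for a siVRK1 ubK119 peak and the siControl-only peaks for having none, which favours that order. How far the choice of each set shapes these values was not tested.

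The ratio of siVRK1 to siControl ubK119 was 0.5401 (0.537 to 0.5435) in the siControl-only peaks. The choice of peaks high in siControl and not called after siVRK1 fixes this direction. At least 2-fold lower values after siVRK1 were found in 9595 regions (47.3%, 46.65 to 48.0), against 38.2% of all siControl ubK119 peaks, and at least 2-fold higher ones in 4, against 1.62%. In 1897 regions (9.36%, 8.96 to 9.77) siVRK1 ubK119 had more RPM than siControl ubK119. A region count of 18 or more in the siVRK1 ubK119 library, the number at which that list begins for heights, was reached in 511 regions (2.52%, 2.31 to 2.75). Counts cover the whole region while heights cover a window, so these need not have been called.

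Higher siControl-only peaks had somewhat more siVRK1 ubK119. Its ratio to the siVRK1 input was 1.304 (1.29 to 1.32) at 9509 peaks of 15 reads, 1.33 (1.305 to 1.35) at 5079 peaks of 16 reads and 1.36 (1.33 to 1.39) at 2715 peaks of 17 reads. At 2147 peaks of 18 to 19 reads it was 1.401 (1.37 to 1.43), at 717 peaks of 20 to 22 reads 1.45 (1.401 to 1.498) and at 100 peaks of 23 to 29 reads 1.44 (1.325 to 1.57). The order of the ratios followed height up to 22 reads, and the interval at the top contains the value before it. The same ratio was 1.29 (1.27 to 1.31) at peaks of 200 bp and 1.45 (1.39 to 1.52) at the 306 peaks of 400 to 499 bp. Height and length are values of the siControl ubK119 library and are not independent of each other.

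The 26 peaks whose height reached 0.6005 RPM lay on 14 chromosomes, 6 of them on chromosome 5 and 3 on chromosome 17. Their siControl ubK119 counts ran from 27 to 42 with a median of 33, and their siVRK1 ubK119 counts from 6 to 27 with a median of 14. The siVRK1 to siControl ubK119 ratio over these 26 was 0.568 (0.501 to 0.643), close to that of the whole set, and siVRK1 ubK119 stood at 1.635 times (1.39 to 1.93) the siVRK1 input. No siControl pT120 peak overlapped any of them, and the exact interval of that share runs from 0 to 13.2%.

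Phosphorylation of T120 in siControl cells, the measure that the rule did not use, was at the level of input. Over the siControl-only peaks it had 1.012 times (1.001 to 1.022) the level of the siControl input, or 0.935 times (0.926 to 0.944) that of the siVRK1 input, so the side of 1 on which it fell depended on the input used. Both inputs were capped by the rule, so these ratios are not free of it. At least 2-fold above the siControl input were 3973 regions (19.6%, 19.1 to 20.2), against 16.9% of all siControl ubK119 peaks, and at least 2-fold below were 3966 (19.6%), against 17.1%. The numbers above and below were nearly the same, and both shares lie close to those of the whole list. In 9867 regions (48.7%, 47.99 to 49.4) siControl pT120 had more RPM than the siControl input. At heights of 15, 16 and 17 reads the ratio to the siControl input was 1.009 (0.993 to 1.025), 0.995 (0.975 to 1.02) and 1.01 (0.987 to 1.04), and at 18 to 19 reads it was 1.04 (1.015 to 1.07). At 20 to 22 and 23 to 29 reads it was 1.03 (0.985 to 1.08) and 1.002 (0.894 to 1.12), so it did not follow height.

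Set beside the kept peaks, the siControl-only peaks had less pT120 over the siControl input and about as much over the siVRK1 input. The kept peaks had 1.301 (1.25 to 1.36) and 0.971 (0.935 to 1.01) times, and the ubK119 peaks of siVRK1 cells only had 1.31 (1.29 to 1.33) and 0.976 (0.963 to 0.989) times the siControl and siVRK1 inputs. The inputs themselves differed between the sets: siVRK1 over siControl input was 1.08 (1.07 to 1.09) in the siControl-only peaks, 1.34 (1.29 to 1.39) in the kept peaks and 1.35 (1.33 to 1.365) in the siVRK1-only ubK119 peaks. The part of the inputs in the difference between the sets was not tested.

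Called peaks of siControl pT120 were rare at the siControl-only peaks. They overlapped 55 of 20267 (0.271%, 0.2045 to 0.353), against 9.03% of all and 5.79% of all short siControl ubK119 peaks. Short peaks that also overlap one of the 5 other lists count in those shares and not among the siControl-only peaks. These were 55 of the 6665 siControl pT120 peaks (0.825%, 0.622 to 1.07). Of the kept peaks 10 of 859 (1.16%, 0.5596 to 2.13) overlapped one, of the siControl ubK119 peaks at siVRK1 pT120 peaks 30 of 1148 (2.61%, 1.77 to 3.71), and of the siVRK1-only ubK119 peaks 56 of 7839 (0.714%, 0.5401 to 0.927). A siControl pT120 peak lay within 500 bp of 204 siControl-only peaks (1.01%) and within 5000 bp of 1177 (5.81%). The siControl pT120 list began at 0.5801 RPM, above the median siControl ubK119 height of 0.3956 RPM at the siControl-only peaks.

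The 55 regions that overlapped a called siControl pT120 peak by 1 bp or more had calls of both marks in siControl cells. They lay on 16 chromosomes, with 10 each on chromosomes 3 and 5 and 9 on chromosome 18. Their siControl ubK119 counts ran from 10 to 33 with a median of 17, and siControl pT120 counts from 2 to 16 with a median of 10. After siVRK1 the ubK119 counts ran from 0 to 30 with a median of 10 and the pT120 counts from 0 to 15 with a median of 5. VRK1 had 1 to 15 reads with a median of 8, and the siControl and siVRK1 inputs 0 to 11 and 3 to 18 with medians of 6 and 9. Ubiquitylated K119 after siVRK1 stood at 1.36 times (1.203 to 1.535) the siVRK1 input, against 1.34 (1.33 to 1.35) in the other siControl-only peaks. VRK1 stood at 1.21 times (1.045 to 1.396) the siControl input, against 1.12 (1.11 to 1.13) in the others, and over the siVRK1 input the order turned, with 0.991 (0.871 to 1.128) against 1.04 (1.03 to 1.05). The pT120 ratio of siVRK1 to siControl was 0.329 (0.284 to 0.3801), where the call in siControl cells favours a low value.

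The kinase itself was slightly above input. In the siControl-only peaks VRK1 had 1.12 times (1.11 to 1.13) the level of the siControl input, or 1.04 times (1.03 to 1.05) that of the siVRK1 input, without a called VRK1 peak in any. It was above the siControl input in RPM in 11556 regions (57.0%, 56.3 to 57.7). At least 2-fold above were 3826 regions (18.9%, 18.3 to 19.4), against 17.1% of all siControl ubK119 peaks, and at least 2-fold below 2470 (12.2%), against 10.6%. The kept peaks had a VRK1 ratio to the siControl input of 1.45 (1.397 to 1.51), the siControl ubK119 peaks at siVRK1 pT120 peaks 0.917 (0.888 to 0.947). Over the siVRK1 input these were 1.08 (1.05 to 1.12) and 0.985 (0.955 to 1.02), nearer to the 1.04 of the siControl-only peaks. The part of the inputs in this was not tested.

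After siVRK1, pT120 was the lowest of all libraries in these regions. It stood at 0.8025 times (0.7957 to 0.809) the siVRK1 input. Between the pT120 libraries, siVRK1 over siControl gave 0.858 (0.8498 to 0.867). Regions called in input DNA had a ratio of 0.609 (0.606 to 0.613), so relative to those the siControl-only peaks stood at 1.41, which turns the direction. At least 2-fold lower pT120 after siVRK1 was found in 5193 regions (25.6%, 25.02 to 26.2), against 25.1% of all siControl ubK119 peaks, and at least 2-fold higher in 3403 (16.8%), against 14.9%. In the kept peaks the siVRK1 to siControl pT120 ratio was 0.4865 (0.4655 to 0.508), and in the siVRK1-only ubK119 peaks 0.369 (0.363 to 0.375). None of the 3 sets could hold a region with a siVRK1 pT120 peak.

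The siControl-only peaks were unevenly placed on the chromosomes. Chromosome 3 held 2762 (13.6%, 13.2 to 14.1), chromosome 5 held 2517 (12.4%, 11.97 to 12.9) and chromosome 20 held 1210 (5.97%, 5.65 to 6.305), together 32.0% of the set. Per Mb, chromosome 20 had the most with 19.2, followed by chromosomes 3 and 5 with 13.96 and 13.9. Chromosomes 17 and 13 had 10.7 and 10.5 per Mb, and chromosomes 4 and 15 had 0.696 and 0.733. On chromosomes X and Y there were 4 and 8 peaks, or 0.0286 and 0.136 per Mb. The number of DNA copies per chromosome was not measured apart from the inputs.

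Other short siControl ubK119 peaks had another placement. Chromosome 18 held 28.4% of them but 2.95% (2.72 to 3.19) of the siControl-only peaks, and chromosomes X and Y held 0.9997% and 2.405% against 0.0197% and 0.0395%. Of all siControl ubK119 peaks on chromosome 18, 18.7% were siControl-only, on chromosome Y 3.24%, on chromosome X 5.26% and on chromosome 4 35.85%. On chromosomes 14, 15 and 12 the share was 89.3%, 88.2% and 86.5%. Peaks of the siControl input were frequent on chromosomes 3 (19.45%) and 18 (14.2%), and a peak at an input peak could not be siControl-only. The input level within the siControl-only peaks was 0.742 and 0.763 RPM per kb on chromosome 3 and 0.803 and 0.848 on chromosome 18 under siControl and siVRK1, against 0.424 and 0.568 on chromosome 15.

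**Figure D3:**
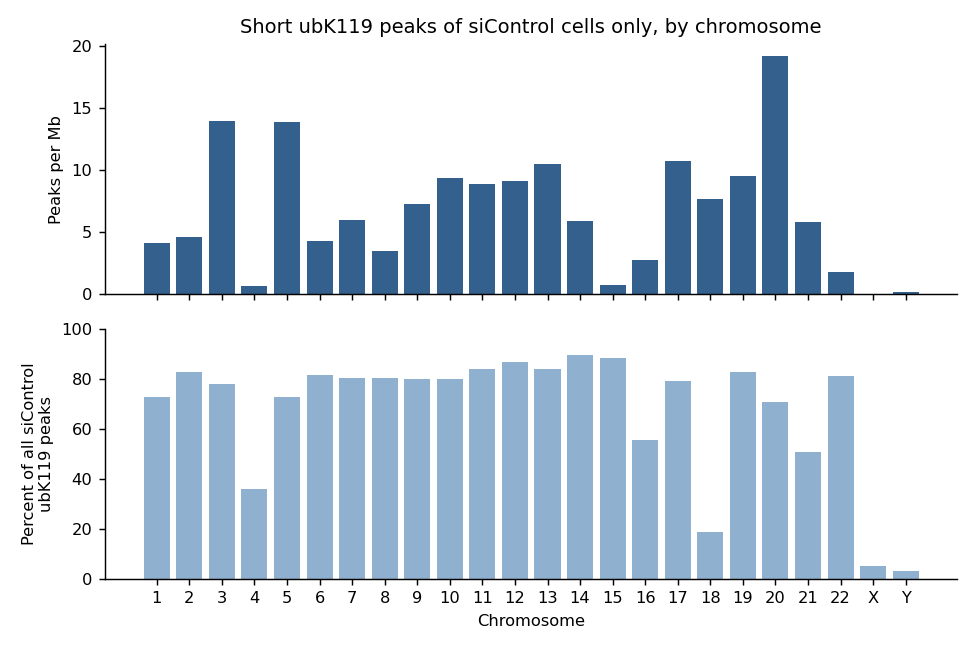
Number of siControl-only ubK119 peaks per Mb of each chromosome (top, length taken to the last peak end) and their share among all siControl ubK119 peaks of the chromosome in percent (bottom). Chromosome 20 has the most per Mb (19.2), while on chromosome 18 they are 18.7% of the ubK119 peaks.

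The ratios held their side of 1 over most chromosomes. On all 22 chromosomes with at least 50 siControl-only peaks, that is all but X and Y, siVRK1 ubK119 lay above the siVRK1 input with an interval above 1. The lowest ratio was 1.16 (1.13 to 1.18) on chromosome 3 and the highest 1.61 (1.46 to 1.78) on chromosome 4. On all 22 siVRK1 pT120 lay below the siVRK1 input, lowest on chromosome 15 with 0.609 (0.512 to 0.723) and highest on chromosome 9 with 0.922 (0.889 to 0.957). VRK1 lay above the siControl input on all 22, with an interval above 1 on 19, lowest on chromosome 3 with 1.02 (0.9998 to 1.05) and highest on chromosome 17 with 1.32 (1.26 to 1.38). Relative to the siVRK1 input VRK1 lay above 1 on 19 chromosomes, with an interval above 1 on 10.

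Chromosomes differed in siControl pT120 relative to the siControl input. Its ratio to the siControl input had an interval above 1 on 3 chromosomes and below 1 on 2, between 0.9504 (0.912 to 0.990) for chromosome 13 and 1.165 (1.02 to 1.33) for chromosome 4, and chromosome 17 had 1.16 (1.10 to 1.22). With the siVRK1 input as reference it lay below 1 on all 22. Chromosomes 13 and 17 then had 0.934 (0.898 to 0.971) and 0.947 (0.905 to 0.992), with intervals that overlap. Chromosome 4 then had 0.990 (0.876 to 1.12). Chromosome 17 also had a siVRK1 pT120 ratio to input of 0.624 (0.597 to 0.652) and a siVRK1 ubK119 ratio of 1.51 (1.46 to 1.57). Chromosome 9 had 0.922 and 1.26 (1.22 to 1.31), with a siVRK1 to siControl pT120 ratio of 0.996 (0.954 to 1.04), the highest of the 22.

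**Figure D4:**
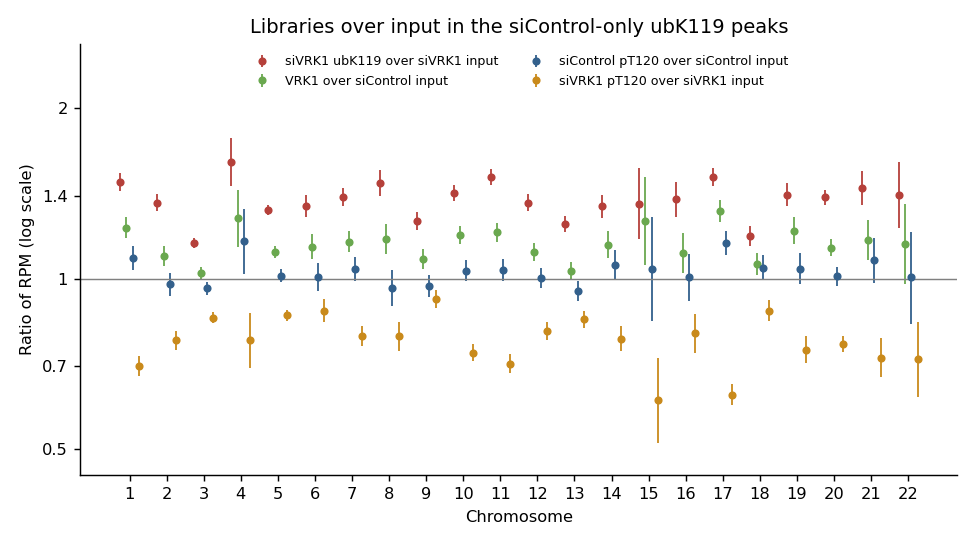
Ratio of RPM (vertical axis, log scale) of 4 libraries over the input of the same siRNA in the siControl-only ubK119 peaks of chromosomes 1 to 22, with exact conditional binomial 95% intervals of counting error. Points for siVRK1 ubK119 lie above 1 and points for siVRK1 pT120 below 1 on all 22 chromosomes, while siControl pT120 lies on both sides of 1.

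Within chromosomes the siControl-only peaks were crowded. The median gap to the next one was 6647 bp, and 8951 (44.2%, 43.5 to 44.85) had another within 5000 bp. Windows of 1 Mb with at least 1 peak numbered 1973 of 3093 (63.8%), and the 195 fullest windows, 6.305% of all, held 50% of the set. The first 20 Mb of chromosome 5 alone held 1723 peaks (8.502% of the set and 68.45% of those on chromosome 5). From 120 to 140 Mb of chromosome 3 there were 965, from 20 to 40 Mb of chromosome 20 there were 648, and in the first 20 Mb of chromosomes 12 and 18 there were 622 and 542. These stretches were chosen after their values were seen.

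The distance to peaks of the other lists was also measured. The median gap from a siControl-only peak to the nearest siVRK1 ubK119 peak was 19766 bp. A siVRK1 ubK119 peak lay within 500 bp of 1040 siControl-only peaks (5.13%, 4.83 to 5.44) and within 5000 bp of 5561 (27.4%, 26.8 to 28.1). A siVRK1 pT120 peak lay within 5000 bp of 23.2% (22.6 to 23.8), a VRK1 peak of 20.2% (19.6 to 20.7), and a peak of the siControl and siVRK1 inputs of 13.0% (12.5 to 13.5) and 20.5% (19.9 to 21.0). The lists differ in number, so these shares are not ranked against each other.

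Levels differed between crowded and sparse windows. In windows of 1 to 4 siControl-only peaks (2070 peaks) siVRK1 ubK119 had 0.6504 RPM per kb and the siVRK1 input 0.586, a ratio of 1.11 (1.08 to 1.14). In windows of 5 to 19 (6907 peaks) the ratio was 1.27 (1.25 to 1.29), in windows of 20 to 49 (5469 peaks) 1.39 (1.37 to 1.41) and in windows of 50 to 99 (3458 peaks) 1.445 (1.42 to 1.47). In the 17 windows of 100 or more (2363 peaks) it was 1.38 (1.35 to 1.405), below that of the step before. The siControl input also went up along these steps, from 0.572 to 0.717 RPM per kb, and siControl ubK119 only from 1.69 to 1.74. For siControl pT120 the ratio to its input was 0.927 (0.895 to 0.961) in the sparsest and 1.06 (1.03 to 1.09) in the most crowded windows. Against the siVRK1 input it was lower in both, with 0.5305 against 0.586 RPM per kb in the sparsest and 0.761 against 0.780 in the most crowded. The part of the local DNA copy number in this was not tested.

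**Figure D5:**
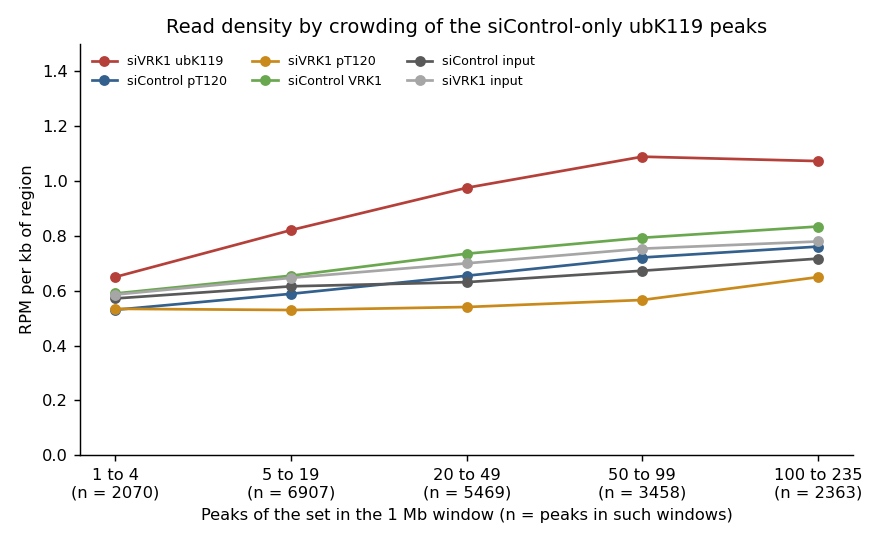
Read density in RPM per kb (vertical axis) of 6 libraries in siControl-only ubK119 peaks, grouped by the number of such peaks in their 1 Mb window (horizontal axis, with the number of peaks per group). The siVRK1 ubK119 line runs from 0.6504 to 1.09 and 1.07 RPM per kb, while the siControl input runs from 0.572 to 0.717.

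The 5 fullest windows lay on chromosomes 5, 13 and 20. From 2 to 3 Mb of chromosome 5 there were 235 siControl-only peaks among 333 siControl ubK119 peaks, with a siVRK1 ubK119 ratio to input of 1.43 (1.345 to 1.53) and a siControl pT120 ratio to input of 1.17 (1.08 to 1.275). From 1 to 2 Mb of the same chromosome there were 170 among 477, with 1.87 (1.74 to 2.02) and 1.41 (1.27 to 1.56). In the first of these adjoining windows siControl pT120 had 0.798 RPM per kb and the siVRK1 input 0.818, and in the other 0.791 and 0.7025. From 112 to 113 Mb of chromosome 13, 180 peaks had ratios of 1.61 (1.497 to 1.74) and 1.16 (1.04 to 1.285). There siControl pT120 had 0.699 RPM per kb and the siVRK1 input 0.720. From 24 to 25 Mb of chromosome 20, 153 peaks had 1.35 (1.25 to 1.47) and 1.04 (0.942 to 1.155). From 11 to 12 Mb of chromosome 5, 150 peaks had 1.18 (1.08 to 1.29) and 0.898 (0.8004 to 1.01), so the siVRK1 ubK119 ratios of the 3 windows on chromosome 5 have intervals that do not overlap.

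Single regions are named by their hg19 position, and hg19 gene models and sequence were not used here. The 8 with the highest siControl ubK119 height lay on chromosomes 5, 14, 13, 6, 10 and 4. On chromosome 5 (5067050 to 5067394, height 29) the siControl ubK119 library had 35 reads and the siVRK1 ubK119 library 13, pT120 had 2 and 8, VRK1 5 and the inputs 7 and 13 under siControl and siVRK1. In RPM, siVRK1 ubK119 was 0.434 against 0.391 for its input, while siControl ubK119 was 0.8654 against 0.2603. On chromosome 14 (106800956 to 106801408, height 29) there were 36 and 16 reads of ubK119, 8 and 9 of pT120, 13 of VRK1 and 8 and 16 of input. In both regions siVRK1 ubK119 stood at 1.11 times its input, with intervals (0.474 to 2.598 and 0.519 to 2.37) that include 1.

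The region on chromosome 13 from 113619228 to 113619507 was narrower, with 29 and 14 reads of ubK119, 7 and 9 of pT120, 5 of VRK1 and only 2 and 4 of input. There siVRK1 ubK119 was 3.88 times (1.22 to 16.2) its input although no peak was called. On chromosome 4 (1421204 to 1421545) there were 27 and 14 reads of ubK119, 3 and 7 of pT120, 6 of VRK1 and 11 and 3 of input, a ratio of 5.18 (1.445 to 28.1). Also on chromosome 4 (7495607 to 7496100) ubK119 had 37 and 22 reads, pT120 6 and 6, VRK1 4 and the inputs 6 and 10, a ratio of 2.44 (1.11 to 5.77). These were the 3 of the 8 in which the interval of siVRK1 ubK119 over input lay above 1. Regions on chromosomes 10 (134742598 to 134743022) and 5 (5544353 to 5544817), also among the 8, had 35 and 34 reads of ubK119 in siControl and 13 and 11 in siVRK1 cells, on 12 siVRK1 input reads each. Their siVRK1 ubK119 ratios to input, 1.202 (0.506 to 2.88) and 1.017 (0.407 to 2.52), have intervals that include 1.

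Another pattern stood on chromosome 6 from 57469304 to 57469699, with 38 and 10 reads of ubK119, 3 and 19 of pT120, 5 of VRK1 and 16 and 8 of input. The siVRK1 to siControl ubK119 ratio was the lowest of the 8, 0.355 (0.158 to 0.726), and pT120 went the other way, with a ratio of 3.64 (1.07 to 19.2). Both siControl pT120 and VRK1 lay below the siControl input there, at 0.244 (0.0455 to 0.8515) and 0.262 (0.0752 to 0.749) times. The inputs themselves differed at this place, at 0.595 and 0.2405 RPM under siControl and siVRK1.

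The 6 siControl-only peaks with the most siControl pT120 reads had 15 to 17 of them. On chromosome 9 (36865969 to 36866356) there were 25 and 24 reads of ubK119, 17 and 4 of pT120, 14 of VRK1 and 10 and 8 of input. Here ubK119 in RPM was higher after siVRK1, 0.801 against 0.618, with a ratio interval (0.708 to 2.36) that includes 1, and siVRK1 ubK119 was 3.33 times (1.45 to 8.57) its input. On chromosome 1 (154120304 to 154120698), where a called siControl pT120 peak covered 51.0% of the region, there were 16 and 16 reads of ubK119, 15 and 9 of pT120, 8 of VRK1 and 2 and 9 of input. Over the siControl input pT120 stood at 9.75 (2.27 to 87.9) times, on 2 input reads.

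On chromosome 7 (142460717 to 142461063) there were 24 and 16 reads of ubK119, 15 and 5 of pT120, 13 of VRK1 and 6 and 7 of input, and pT120 stood at 3.25 (1.19 to 10.2) times the siControl input. At 3 more places, chromosome 3 (193751309 to 193751607, and 184256938 to 184257367) and chromosome 20 (19438896 to 19439365), there were 16, 15 and 16 siControl pT120 reads on 10, 8 and 13 input reads, with intervals of the ratio that include 1. In 5 of the 6 regions the pT120 ratio of siVRK1 to siControl had an interval below 1, from 0.135 (0.0331 to 0.414) on chromosome 9. The choice by siControl pT120 reads favours this direction, and also high ratios of siControl pT120 to input.

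The 4 siControl-only peaks with the most siVRK1 ubK119 had 30 to 33 of its reads, and in each its RPM was above that of siControl ubK119, within counting error. On chromosome 3 (193998990 to 193999476) ubK119 had 31 reads in siControl and 33 in siVRK1 cells, or 0.7665 and 1.101 RPM, with 6 and 4 reads of pT120, 19 of VRK1 and 9 and 19 of input. Also on chromosome 3 (128174196 to 128174671) it had 33 and 32 reads, with 7 and 11 of pT120, 12 of VRK1 and 9 and 10 of input. There siVRK1 ubK119 stood at 3.55 times (1.703 to 8.097) its input. On chromosome 10 (46981851 to 46982304) ubK119 had 29 and 31 reads, pT120 9 and 2, VRK1 21 and the inputs 17 and 21. On chromosome 9 (37706986 to 37707352) it had 30 and 30 reads, pT120 14 and 9, VRK1 8 and the inputs 7 and 18. The siVRK1 to siControl ubK119 ratio was between 1.31 and 1.44 in the 4, each with an interval that includes 1. The choice by siVRK1 ubK119 favours this direction, and also high ratios to input.

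The most VRK1 reads, 22 to 25, were found in regions on chromosomes 5 (6037696 to 6038190), 20 (20780712 to 20781123), 18 (6161098 to 6161575) and 3 (140771115 to 140771557). On chromosome 3 the 22 VRK1 reads stood against 6 siControl input reads, a ratio of 3.08 (1.21 to 9.28), with 32 and 17 reads of ubK119 and 3 and 9 of pT120. On chromosome 20 there were 24 VRK1 reads on 8 of input, a ratio of 2.52 (1.09 to 6.48), with 33 and 12 reads of ubK119 and 8 and 9 of pT120. The other 2 had intervals that include 1. The choice by VRK1 reads favours high VRK1 ratios to input, which the intervals do not cover. In none of the 4 did siControl pT120 differ from its input beyond counting error.

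The limit of 500 bp left out few regions. The 367 peaks that met the rule but for their length are 1.78% of all that met the rest. The longest siControl-only peaks, both 499 bp and on chromosome 5 (2274306 to 2274805, and 11147943 to 11148442), had 39 and 15 and 38 and 13 reads of ubK119 in siControl and siVRK1 cells. The shortest regions left out, both 500 bp and on chromosome 5 (1568308 to 1568808, and 132764528 to 132765028), had 31 and 16 and 33 and 21. The 141 peaks of 450 to 499 bp had 1.77 and 1.13 RPM per kb of siControl and siVRK1 ubK119, and the 116 of 500 to 549 bp had 1.71 and 1.12. For siControl and siVRK1 pT120 the values were 0.682 and 0.573 RPM per kb inside the limit and 0.745 and 0.511 outside it. The siControl input had 0.703 inside and 0.638 outside, the siVRK1 input 0.766 and 0.745, and VRK1 0.828 and 0.8003.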

How the data were processed

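The 7 deposited lists hold peaks called in 1 library each, aligned to hg19 per the file headers. CASAVA 1.8.2, Bowtie 0.12.8 and Partek are listed, with no role, by the submitters' processing notes; per the labels' protocols libraries went through 20 PCR cycles and 36 sequencing cycles. Peak-calling settings, duplicate removal and use of input: not given in the sources used here. Per the file headers the authors deposited, for each peak, its height as a signal (extended reads at the fullest window), that height as RPM, a Mann-Whitney p-value (what it compares is not stated), each library's raw read count within the region, and the percent of the region covered by peaks of each library.

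Library totals were taken from height over RPM. Overlap meant 1 bp, and differed from the deposited percent in 0 cases. Ratios are of summed RPM with exact conditional binomial intervals, shares have Clopper-Pearson intervals, levels exact Poisson intervals, all at 95%. The ratio was tested on simulated independent reads for siControl pT120 over input at the 20267 peaks. Ratios set to 0.5, 1 and 1.5 were estimated at 0.5003, 0.9997 and 1.501, and 95%, 94.5% and 92% of 200 intervals held the set value. The simulated reads held no PCR copies, so the intervals were checked only under the independence that they assume. Groups came from sample titles. No p-value was computed, with 1 library per condition. Regions were named by a rule: the 8 highest, the 6 with most siControl pT120, the 4 each with most siVRK1 ubK119 and VRK1, the 2 on each side of 500 bp and the 5 fullest windows. The members, lists and comparisons were chosen with earlier results of these data known. Sequences and gene names were left out, since the tables at hand are of another build. Python 3.11 (numpy, pandas, scipy) was used.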

Additional observations from a re-analysis of the deposited data

How the results depend on the processing

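The siVRK1 ubK119 excess over input and the VRK1 excess over input kept their direction in all alternatives run, and siControl pT120 did not. Its ratio to input was 1.012 as reported, 0.9993 or 0.9675 when no peak of the 5 excluded lists lay within 500 or 5000 bp, and 0.9351 with the siVRK1 input as reference. The siVRK1 to siControl pT120 ratio turned from 0.858 to 1.409 relative to input regions, where it was 0.609. The wider gap of 5000 bp left 8845 peaks, with 0.1018% at siControl pT120 peaks (0.1835% with 500 bp). There the siVRK1 to siControl pT120 ratio was 0.9159 (0.8740 with 500 bp), siVRK1 ubK119 over input 1.290 (1.329) and VRK1 over input 1.090 (1.113). Heights of 18 reads or more left 2964 peaks, with 0.3711% at siControl pT120 peaks and 15.32% and 7.524% on chromosomes 5 and 20. Their ratios were 1.038 for pT120 over input, 0.8231 between pT120 libraries, 1.415 for siVRK1 ubK119 and 1.156 for VRK1. Heights of 0.6005 RPM or more left 26 peaks, with 0% at siControl pT120 peaks and ratios of 1.635 for siVRK1 ubK119 and 1.064 for VRK1 (0.8745 to 1.296). Under 300 bp, the ratio between pT120 libraries was 0.8772, that of siVRK1 ubK119 1.313 and that of VRK1 1.111, and without a length limit siVRK1 ubK119 gave 1.350. Without peaks whose count lay below the height, 12759 remained, with 0.8448 between pT120 libraries and 1.361 for siVRK1 ubK119. Without chromosomes 3 and 5, an alternative chosen after seeing the data, pT120 over input was 1.023, and the other ratios in the same order 0.8384, 1.382 and 1.147. The median over regions gave 0.8293 between pT120 libraries, 1.280 for siVRK1 ubK119 and 1.079 for VRK1. The other input gave 1.449 for siVRK1 ubK119 and 1.038 for VRK1. The share at least 2-fold above input in siControl pT120 was 15.47% with 1 read added and 14.59% over the siVRK1 input. A siControl pT120 peak lay within 500 or 5000 bp of 1.007% and 5.807%. The other 28 values stayed within the reported intervals or, for numbers of peaks, within 1.5 times. The cause of these shifts was not tested. Single regions held too few reads to order them: at a median of 3 siControl pT120 reads, differences of a few reads are within counting error.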

Other observations

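The authors' deposited p-value per peak was at most 0.05 for 3312 of the 20267 siControl-only ubK119 peaks (16.3%, 15.8 to 16.9), against 12.1% (10.0 to 14.5) of the kept peaks and 26.8% (25.9 to 27.8) of the short ubK119 peaks of siVRK1 cells only. Over whole lists the share ran from 10.1% for siVRK1 pT120 to 28.2% for siVRK1 ubK119, with 17.2% and 19.6% in the siControl and siVRK1 inputs. The count of siControl ubK119 reads in the region lay below the deposited height in 7508 siControl-only peaks (37.05%, 36.4 to 37.7).

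The siVRK1 ubK119 library stood at 1.29 times (1.28 to 1.301) the RPM of the VRK1 library in the siControl-only peaks, and lay above it on all 22 chromosomes with at least 50 of them, lowest on chromosome 3 with 1.16 (1.14 to 1.19) and highest on chromosome 22 with 1.48 (1.29 to 1.701).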
